A study of Mus musculus with 6 samples.

Results

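The liprin and neuron navigator (Nav) families were examined in CNS monocytes through 9 genes, of 54232 in the deposited tables: the liprin-α genes *Ppfia1*, *Ppfia2*, *Ppfia3*, and *Ppfia4*, the liprin-β genes *Ppfibp1* and *Ppfibp2*, and *Nav1*, *Nav2*, and *Nav3*. The set was chosen by the measured difference between the genotypes of *Ppfia4* and *Nav1*, which had opposite directions and lie near *Ptprc* on chromosome 1, so the values of this pair are given as a description, with no p-value. The other 7 members are their paralogs on other chromosomes. All cells came from irradiated GFP+ recipient mice whose BM was replaced with equal parts of CD45.1 WT and CD45.2 *Ifnar1*-/- donor cells (1:1), immunized for EAE 6 to 7 weeks later and treated daily with 30000 IU of rIFN-β. EAE models multiple sclerosis in mice, and IFNAR1 is a chain of the type I IFN receptor. At disease peak, GFP- CD45+CD11b+Ly6Chi Ly6G- monocytes were sorted by genotype, which gave 3 WT and 3 *Ifnar1*-/- libraries. No library came from untreated mice, and all WT cells carried one *Ptprc* variant and all *Ifnar1*-/- cells the other, so loss of the receptor and other differences between the donors cannot be told apart. In such bulk samples, fewer cells expressing a gene and less RNA per cell cannot be told apart either.

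Liprins are cytoplasmic scaffold proteins, with coiled coils at one end and SAM domains at the other. Liprin-α proteins bind LAR-type receptor tyrosine phosphatases and organize the presynaptic active zone, and liprin-β proteins pair with them and take part in anchoring microtubules at the cell cortex. Nav proteins follow the growing ends of microtubules and guide neurite outgrowth and cell migration, and *Nav2* is known as a retinoic acid-induced gene.

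The libraries totaled between 4531782 and 7321380 expected counts, RSEM's estimate of the reads per gene, and 3 counts, taken as the floor of detection for counting error alone, equal 0.410 to 0.662 CPM (counts scaled by the size of the library). The targeted gene, *Ifnar1*, had 153, 126, and 111 normalized CPM in WT and 110, 102, and 109 in *Ifnar1*-/- libraries. The mean transcript length that RSEM estimated for it was 3552, 3198, and 3307 bases in WT and 2219, 2284, and 2471 bases in *Ifnar1*-/- libraries, so the genotypes were well apart by this measure, whereas their levels were apart by little (log2 fold change 0.28 ± 0.15 SE, edgeR adjusted p = 0.360). The summed level of 6 monocyte markers was 7820 to 9320 normalized CPM in WT and 8390 to 9590 in *Ifnar1*-/- libraries, and 1 of them, *Ly6c2*, which encodes an antigen of the Ly6C sort, was called higher in WT (log2 fold change 1.40 ± 0.23 SE, edgeR adjusted p = 0.00957). Markers of neurons, cells in which both families are best known, summed to at most 2.17 normalized CPM in any library over 7 genes, and *Rbfox3* was at 0 in all 6. Markers of T cells (5 genes, none called) summed to 15.1 to 35.9 normalized CPM in WT and 6.44 to 13.3 in *Ifnar1*-/- libraries, and those of astrocytes (4 genes, none called) to 18.9 to 26.3 and 4.89 to 17.8. Both sums and *Ly6c2* differed in the direction of *Nav1*. Markers of neutrophils (5 genes, none called) summed to 99.7 to 1040 normalized CPM in WT and 404 to 1590 in *Ifnar1*-/- libraries. Those of microglia summed to 241 to 321 and 284 to 363, in the same order. Sums for endothelial cells were 91.0 to 193 and 61.2 to 95.7, and for oligodendrocytes 44.8 to 60.0 and 44.2 to 49.8. In each of these the genotypes overlapped. The part of all these markers in the results was not tested.

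The DNA upstream of the pair on chromosome 1 is shown because these are the annotated starts of the members that differed most. RefSeq (GRCm38.p6) gives *Ppfia4* 2 starts and *Nav1* 1 start, and the 250 bases before each are printed 5' to 3' on the minus strand, which both genes use.
Ppfia4, upstream start, chr1:134344717-134344966: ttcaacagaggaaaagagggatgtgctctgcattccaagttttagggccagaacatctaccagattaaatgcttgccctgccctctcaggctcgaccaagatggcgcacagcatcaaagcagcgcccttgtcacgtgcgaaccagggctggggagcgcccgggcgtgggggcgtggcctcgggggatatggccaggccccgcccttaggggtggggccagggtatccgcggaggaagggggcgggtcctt
Ppfia4, downstream start, chr1:134332929-134333178: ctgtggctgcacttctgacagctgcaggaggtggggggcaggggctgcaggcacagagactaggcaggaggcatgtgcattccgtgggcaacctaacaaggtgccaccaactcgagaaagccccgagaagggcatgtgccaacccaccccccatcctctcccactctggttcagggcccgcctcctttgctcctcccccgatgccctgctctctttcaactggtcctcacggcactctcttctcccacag
Nav1, chr1:135585356-135585605: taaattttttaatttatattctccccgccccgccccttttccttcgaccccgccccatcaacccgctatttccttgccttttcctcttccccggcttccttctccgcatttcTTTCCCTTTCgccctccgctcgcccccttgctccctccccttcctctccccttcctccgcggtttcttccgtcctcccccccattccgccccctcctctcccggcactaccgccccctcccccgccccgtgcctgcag
The capitals mark a match to the core of the interferon-stimulated response element (GAAA, any 2 bases, and GAAA, which read on the other strand is TTTC, any 2 bases, and TTTC), which lies 138 to 129 bases before the *Nav1* start. Both strands were searched, and 2.98% of all 32851 RefSeq windows of 250 bases hold this core. It was found in 1 of the 13 windows of the 8 members that have one, and the core of the gamma-activated site (TTCNNNGAA), a STAT dimer motif held by 7.02% of all windows, was found in 0 of the 13. A match of letters is not evidence of binding. *Nav3* has no window in the table. The upstream *Ppfia4* start lies 11.8 kb outside the range of the gene in GENCODE M21, whereas the downstream start is the end of that range. The *Nav1* start lies within the range of *Nav1*, downstream of its first base in GENCODE M21 (135607295). The *Nav1* window printed is therefore not the DNA before that base.

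*Ppfia4*, a liprin-α gene known mainly from brain, was the member lower in WT monocytes. *Ppfia4* (ENSMUSG00000026458.13, chromosome 1, 134296783 to 134332928) was measured at 1.14, 2.34, and 0.790 normalized CPM among the WT and at 17.3, 17.8, and 22.1 among the *Ifnar1*-/- libraries (in the order 1, 2, 3, as for all genes). These rest on 8, 11, and 4 counts in WT and 113, 105, and 120 counts in *Ifnar1*-/- libraries, so every WT library was above the floor and far below every *Ifnar1*-/- library. The means were 1.42 ± 0.812 and 19.0 ± 2.64 normalized CPM (SD, n = 3), and the fitted log2 fold change of WT over *Ifnar1*-/- was -3.76 (SE 0.33), or 13.6-fold higher in *Ifnar1*-/- monocytes. In size of change *Ppfia4* ranked 4 among the genes lower in WT of all 11254 tested. No annotated gene overlaps the GENCODE M21 range of *Ppfia4*. The stretch from there to its upstream RefSeq start was not searched. The expected counts of *Ppfia4* were whole numbers in all 6 libraries (within 0.005), as they are when no read is split with another gene.

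*Nav1* moved the other way. The gene (ENSMUSG00000009418.15, chromosome 1, 135434580 to 135607295) reached 87.5, 28.7, and 38.1 normalized CPM in WT and 7.79, 4.58, and 6.62 in *Ifnar1*-/- libraries. All WT values were above all *Ifnar1*-/- values, and WT library 1 stood well above the others. The means were 51.4 ± 31.6 and 6.33 ± 1.63 normalized CPM (SD, n = 3), with a fitted log2 fold change of 3.03 (SE 0.41), or 8.15-fold higher in WT. Without WT library 1 the log2 fold change was 2.40. A lincRNA gene on the same strand, *Gm38399*, overlaps the first 849 bases of the GENCODE M21 range of *Nav1* and extends upstream. This overlap lies upstream of the RefSeq start given above. *Gm38399* had 16.4, 5.10, and 8.49 normalized CPM in WT and 1.53, 1.36, and 1.29 in *Ifnar1*-/- libraries. The expected counts of both genes were whole in 5 of 6 libraries, and with both genes summed the log2 fold change was 3.00. Of 4 other genes that overlap *Nav1*, none passed the filter on low counts, and the highest had 10 counts in a library.

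**Figure D1:**
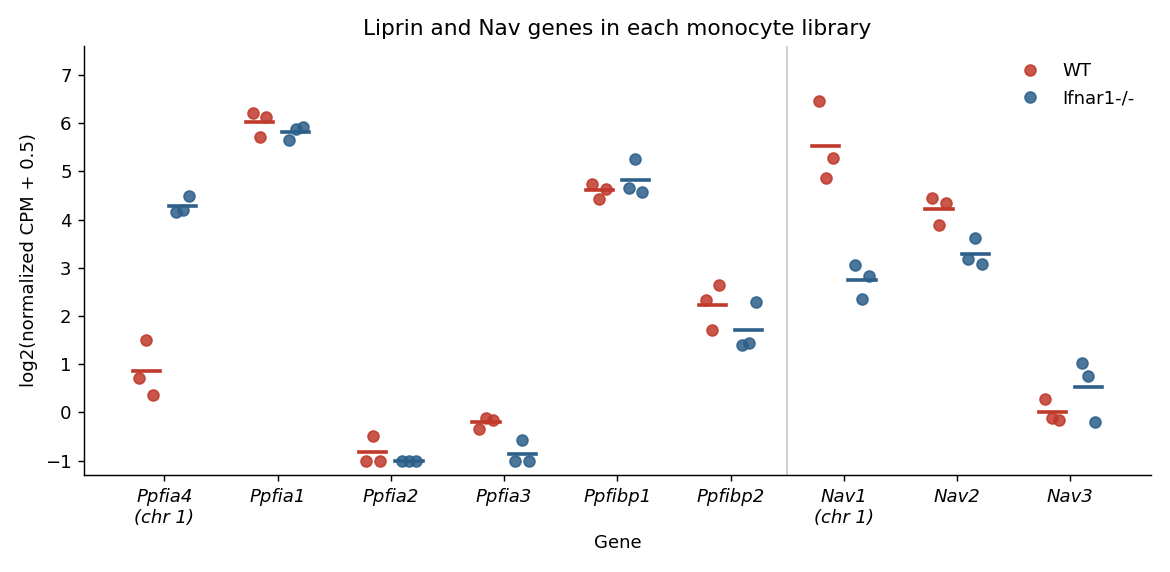
Expression of the 9 liprin and Nav genes, as log2 of normalized CPM plus 0.5 on the vertical axis, in 3 WT (red) and 3 *Ifnar1*-/- (blue) libraries; each point is a library and each bar a group mean. *Ppfia4* is lower and *Nav1* higher in every WT library, *Nav2* is higher in every WT library by less, and *Ppfia2*, *Ppfia3*, and *Nav3* lie near the bottom of the scale.

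Of the 9 members, 6 passed the filter on low counts and entered the fit over all genes. The pair that chose the set was called (*Nav1* higher and *Ppfia4* lower in WT), and none of the 4 tested paralogs on other chromosomes was. Across all tested genes, 2.13% were called by the same rule, which asks for 1.5-fold or more and an edgeR adjusted p no higher than 0.05, with 1.67% higher and 0.462% lower in WT. The members' count says nothing beyond the choice of the pair. The values of the genotypes did not overlap for *Ppfia4* and *Nav1*, which were chosen by this difference. Of the 4 tested paralogs, they did not overlap for *Nav2* alone, against 23.4% of all tested genes.

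*Nav2* (ENSMUSG00000052512.17, chromosome 7, 48908716 to 49610090) was the paralog nearest to a call. It had 21.2, 14.2, and 19.9 normalized CPM in WT and 8.55, 11.7, and 7.91 in *Ifnar1*-/- libraries. Every WT library was above every *Ifnar1*-/- library, as for 11.1% of all tested genes. On the log2 scale WT exceeded *Ifnar1*-/- by 0.98 ± 0.23 (SE), with an edgeR adjusted p = 0.0619, in the direction of *Nav1* and smaller. *Nav2* was called with DESeq2 (log2 fold change 1.00, adjusted p = 0.0265, but 0.163 in DESeq2 with the replicate number as a block), without the filter on low counts (adjusted p = 0.00247 from edgeR), and without WT library 2 (adjusted p = 0.0451 from edgeR), and over all alternatives its adjusted p ranged from 0.00247 to 0.241. The remaining member of the family, *Nav3* on chromosome 10, had 5, 2, and 2 counts in WT and 10, 7, and 2 counts in *Ifnar1*-/- libraries. Its groups overlapped, and it was too low to be tested.

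Among the liprins on other chromosomes, *Ppfia1* (chromosome 7, 144476758 to 144553729), the broadly expressed liprin-α that regulates focal adhesions and cell motility, had 73.7, 52.3, and 69.7 normalized CPM in WT and 49.8, 58.6, and 60.0 in *Ifnar1*-/- libraries. The groups overlapped, with a log2 fold change of 0.22 ± 0.16 (SE, edgeR adjusted p = 0.520). *Ppfibp1* (chromosome 6, 146888487 to 147032025), a liprin-β of the cortical microtubule complex, had 26.3, 21.04, and 24.5 normalized CPM in WT and 24.6, 37.5, and 23.4 in *Ifnar1*-/- libraries. Only *Ifnar1*-/- library 2 stood apart, and the log2 fold change of -0.25 ± 0.21 (SE, edgeR adjusted p = 0.577) became 0.02 without it. *Ppfibp2* (chromosome 7, 107595207 to 107748583), the other liprin-β, had 4.55, 2.76, and 5.73 normalized CPM in WT and 2.14, 2.20, and 4.41 in *Ifnar1*-/- libraries. Its groups overlapped too (log2 fold change 0.59 ± 0.41 SE, edgeR adjusted p = 0.483). *Ppfia2*, on chromosome 10, had 1 count in WT library 2 and 0 counts in each of the other libraries, and *Ppfia3*, on chromosome 7, had 2 counts in each WT library and 0, 1, and 0 counts in *Ifnar1*-/- libraries. Both liprin-α genes of neuronal synapses were therefore at or under the floor, and no difference could be detected at this depth.

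Compared per length, in TPM (a share of all transcripts, corrected for length), *Ppfia1* had the highest mean level of the 9 genes in both genotypes, 22.8 ± 11.7 TPM in WT and 19.6 ± 6.52 in *Ifnar1*-/- monocytes (SD, n = 3). *Ppfibp1* followed at 12.5 ± 3.28 and 11.4 ± 3.40 TPM, and the ranges of these neighbours overlapped within each genotype. The order below them differed. In WT monocytes it was *Nav1* (8.91 ± 3.66 TPM), *Nav2* (5.43 ± 2.11), *Ppfibp2* (2.17 ± 1.07), and *Ppfia4* (0.687 ± 0.710), of which only *Nav2* and *Ppfibp2* were neighbours whose values did not overlap. In *Ifnar1*-/- monocytes *Ppfia4* came next (6.71 ± 1.10 TPM), apart from *Ppfibp1* above and from *Nav2* (2.52 ± 1.27) below, and *Nav1* (1.68 ± 0.550) and *Ppfibp2* (0.920 ± 0.331) followed with overlapping values. TPM depend on the transcript length that RSEM estimated. For *Ppfia1* this length was 3569 bases in WT library 1 and 2167 bases in WT library 3. These libraries had 15.5 and 36.3 TPM of *Ppfia1*, at 73.7 and 69.7 normalized CPM. The order given here and the sums below carry this limit.

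The share of *Ppfia4* in the summed liprin-α TPM was 2.33%, 8.17%, and 0.516% in WT and 27.2%, 21.6%, and 29.7% in *Ifnar1*-/- libraries. The sum itself overlapped between genotypes (23.7 ± 11.4 and 26.3 ± 7.39 TPM, SD, n = 3), and *Ppfia1* made up most of it. For the Nav family the sum was higher in each WT library, with 17.1, 10.3, and 15.8 TPM against 3.53, 6.27, and 3.12 TPM. *Nav1* made up 75.9%, 56.7%, and 50.1% of it in WT and 32.0%, 35.6%, and 54.2% in *Ifnar1*-/- libraries, and these shares overlapped. The sums and shares of both families hold the contrast that chose the pair and are descriptions.

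Paralogs near *Ptprc* were then set against those elsewhere within each library, which cancels library size. On the scale of log2 normalized CPM plus 0.5, *Ppfia4* minus the mean of *Ppfia1*, *Ppfibp1*, and *Ppfibp2* was -3.72, -2.45, and -4.10 in WT and 0.25, 0.00, and 0.23 in *Ifnar1*-/- libraries. The *Ifnar1*-/- values lay close to each other and every WT value was below them, with a difference of -3.59 between the group means. CPM are not corrected for gene length, so these values compare the genotypes and not the levels of the genes. *Nav1* minus *Nav2* was 2.02, 0.99, and 0.92 in WT and -0.13, -1.26, and -0.24 in *Ifnar1*-/- libraries, a difference of 1.85. On the TPM scale, with 0.1 added, the latter difference was 1.18, and the groups overlapped. *Nav1* and *Nav2* had 7.92 and 7.86 TPM in WT library 3 and 1.69 and 1.40 TPM in *Ifnar1*-/- library 3. The differences between paralogs use the contrast that chose the pair and are descriptions.

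**Figure D2:**
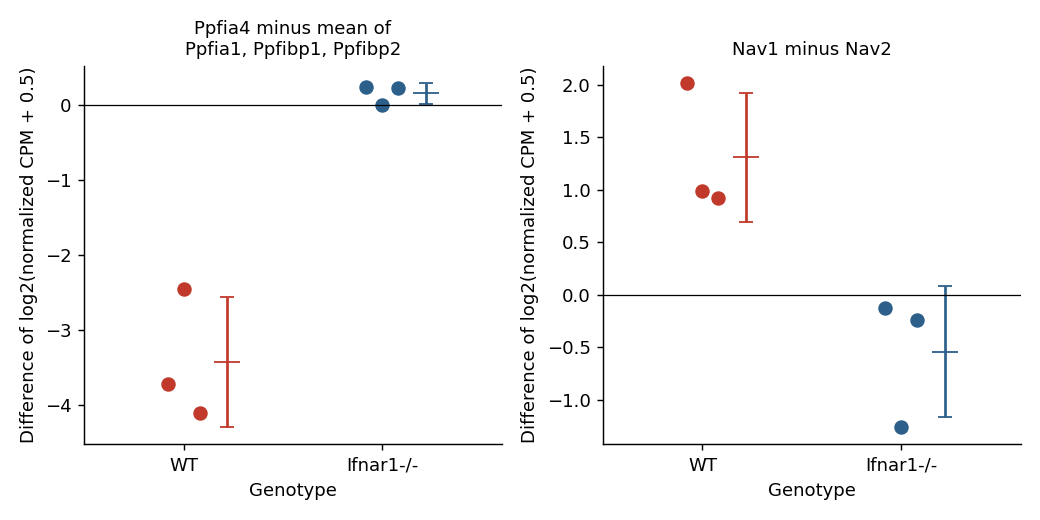
Difference of log2(normalized CPM + 0.5) within each library between the member near *Ptprc* and its tested paralogs on other chromosomes, by genotype (points, 3 libraries each; bars, mean and SD). For *Ppfia4* the 3 *Ifnar1*-/- values lie from 0.00 to 0.25 and all WT values lie below them, and for *Nav1* all WT values lie above the *Ifnar1*-/- values.

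*Ppfia4* lies 3.73 Mb and *Nav1* 2.46 Mb from *Ptprc*, on the same side of it and 1.10 Mb from each other. *Ptprc* itself, which encodes CD45, had 634, 612, and 669 normalized CPM in WT and 675, 608, and 596 in *Ifnar1*-/- libraries, with a log2 fold change of 0.03 ± 0.14 (SE, edgeR adjusted p = 0.950). Of 59 tested genes within 5 Mb of *Ptprc*, 6 were called, 4 of them higher and 2 lower in WT, counting the pair itself. Within 20 Mb 6.1% of tested genes were called with the pair included, against 2.07% elsewhere. Without the pair the share was 4.94% (8 of 162), still with *Gm38399*, which overlaps *Nav1*. The difference between these shares was not tested. From 5 to 10 Mb 1 of 37 genes was called, from 10 to 15 Mb 0 of 29, and from 15 to 20 Mb 3 of 39. *Ppfia4* had the largest decrease in WT of the 164 tested genes within 20 Mb, whereas *Nav1* ranked 5 by the size of its change in either direction.

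**Figure D3:**
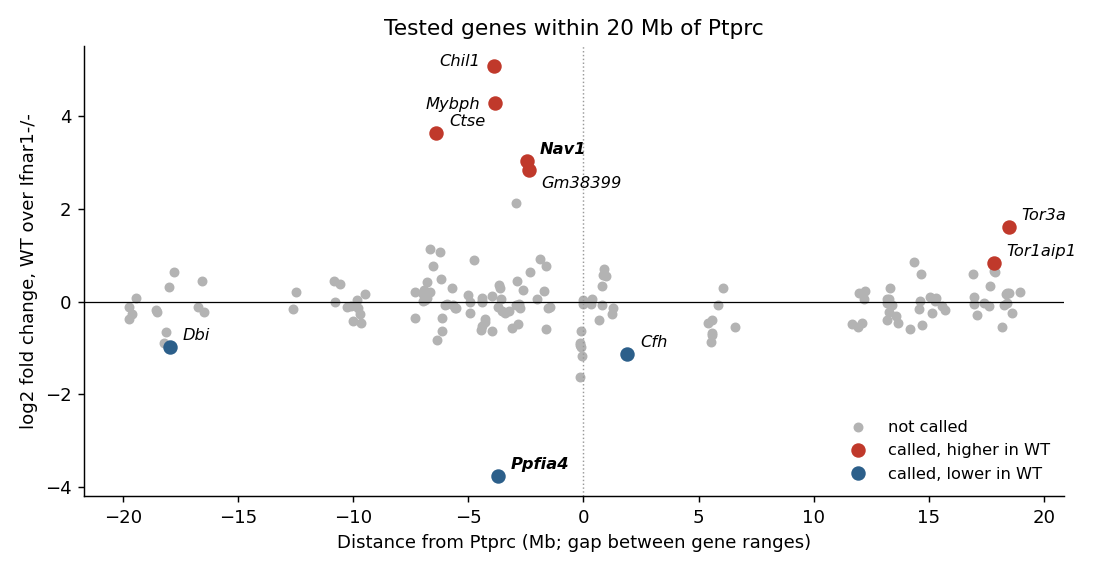
Fitted log2 fold change of WT over *Ifnar1*-/- for the 164 tested genes within 20 Mb of *Ptprc*, by distance from it in Mb (negative, lower coordinates). *Ppfia4*, at -3.76, and *Nav1*, at 3.03, lie on the same side of *Ptprc*, with uncalled genes (grey) between and around them.

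The immediate neighbours did not all share the differences. On one side of *Ppfia4*, at 13.2 kb, *Tmem183a* had a log2 fold change of -0.11 ± 0.17 (SE, edgeR adjusted p = 0.777). On the other side, at 95.6 kb and 107 kb, *Mybph* and *Chil1* were higher in WT, opposite to *Ppfia4*. *Mybph*, which encodes a myosin-binding protein, had only 15, 10, and 18 counts in WT and 0, 1, and 1 counts in *Ifnar1*-/- libraries. *Chil1*, the gene of a chitinase-like glycoprotein of inflammatory macrophages, had a log2 fold change of 5.08 ± 0.23 (SE, edgeR adjusted p = 2.54e-06). Next to *Nav1*, *Ipo9* at 4.08 kb, which encodes a nuclear import receptor, had a log2 fold change of 0.25 ± 0.14 (SE, edgeR adjusted p = 0.379), and *Csrp1* at 113 kb, a LIM protein gene, one of 0.64 ± 0.16 (SE, edgeR adjusted p = 0.0842). Within 1 Mb of the pair, 3 of 35 tested genes were called (8.57%), *Mybph*, *Chil1*, and *Gm38399*, the last of which overlaps *Nav1* itself. Within 1 Mb of the 7 paralogs on other chromosomes, 1 of 88 was (1.14%), the ribosomal protein pseudogene *Rpl14-ps1*, lower in WT. The difference between these shares was not tested.

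The mean transcript length that RSEM estimated, a measure the choice of the pair did not use, was 2403, 1800, and 4390 bases for *Ppfia4* in WT and 2927, 2594, and 2844 bases in *Ifnar1*-/- libraries. The WT estimates rest on at most 11 counts, and the groups overlapped. In all 6 libraries the estimate was below 4674 bases, the shortest of the 3 coding isoforms among its 6 annotated ones, so part of the signal was assigned to shorter, noncoding transcripts. For *Nav1*, with 8 annotated isoforms of 668 to 13117 bases, the estimate was 4973, 5223, and 5124 bases in WT and 6169, 2247, and 3616 in *Ifnar1*-/- libraries. The WT values were close to each other and the *Ifnar1*-/- values spread on both sides of them. The *Ifnar1*-/- estimates rest on only 51, 27, and 36 counts over these isoforms, against 615, 135, and 193 in WT.

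The genes with profiles most like the pair were taken by the smallest root-mean-square difference of centered log2 profiles over the 6 libraries. These profiles hold the contrast that chose the pair. Genes with a difference of like size and direction therefore come out closest by construction, and the matches are descriptions. For *Nav1* they were *Tnfsf10* (0.306), which encodes the death ligand TRAIL, *Gm38399* (0.312), and *Cmpk2* (0.316), which encodes a mitochondrial nucleotide kinase. *Tnfsf10* and *Cmpk2* are known interferon-stimulated genes. *Tnfsf10* had 25.9, 13.2, and 18.8 normalized CPM in WT and 3.36, 2.54, and 2.39 in *Ifnar1*-/- libraries, also highest in WT library 1. For *Ppfia4* the closest were *Gm10273* (0.520), the pseudogene *Gm10157* (0.741), and the 5S rRNA copy *n-R5s193* (0.859), at larger distances than for *Nav1*. *Gm10273* had 0 counts in each WT library and from 13.3 to 19.1 counts in *Ifnar1*-/- libraries. Their expected counts were whole in only 3, 2, and 5 of the 6 libraries, respectively, so RSEM divided reads between them and other sequences, and *n-R5s193* was not called (edgeR adjusted p = 0.118).

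The partners of both families were given by 2 lists. Of 23 liprin partners, 14 were tested and none was called by edgeR, with a median log2 fold change of 0.16, against -0.01 for all tested genes. At an unadjusted p under 0.05 there were 4 (*Git1*, *Git2*, *Diaph1*, and *S100a4*), where 17.8% of all tested genes were below this value, and DESeq2 and limma-voom called none of the list. Among the LAR-type phosphatases, the receptors of liprin-α, *Ptprf* and *Ptprd* were too low to be tested, and *Ptprs* had 92.4, 35.9, and 40.1 normalized CPM in WT and 48.6, 42.02, and 29.8 in *Ifnar1*-/- libraries. Of the active zone genes, *Erc2*, *Rims1*, and *Rims2* did not pass the filter, whereas *Erc1*, the broadly expressed relative of *Erc2*, did, at 21.3 ± 5.41 normalized CPM in WT and 18.5 ± 5.12 in *Ifnar1*-/- libraries (SD, n = 3). Of the cortical complex genes, *Kank1*, *Kank2*, *Phldb2*, and *Kif21a* did not pass, whereas *Phldb1* (13.8 ± 8.12 and 10.1 ± 0.732), *Clasp1* (54.4 ± 5.34 and 51.6 ± 0.547), and *Clasp2* (84.6 ± 8.71 and 94.1 ± 3.14) did, in the same unit and order. The partners with the highest mean TPM were *S100a4*, *Diaph1*, and *Git2*. *S100a4*, a calcium-binding protein that binds liprin-β1, had 97.3, 105, and 99.3 normalized CPM in WT and 231, 111, and 144 in *Ifnar1*-/- libraries (log2 fold change -0.69 ± 0.23 SE, edgeR adjusted p = 0.165). *Diaph1*, an actin-nucleating formin gene, had a log2 fold change of 0.45 ± 0.20 (SE, edgeR adjusted p = 0.260), and *Git2*, a GTPase-activating scaffold gene, one of 0.45 ± 0.19 (SE, edgeR adjusted p = 0.246).

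All 14 Nav partners and microtubule plus-end genes were tested, and none was called by edgeR, DESeq2, or limma-voom, with a median log2 fold change of -0.01. At an unadjusted p under 0.05 there were 2, *Clip2* (log2 fold change 0.70) and *Dctn1* (0.80), which encode a plus-end linker and a dynactin subunit. The genes of this list with the highest mean TPM, *Ywhae*, *Rac1*, and *Mapre1*, had log2 fold changes of -0.22 (SE 0.14), 0.00 (SE 0.15), and -0.07 (SE 0.13). *Mapre1* encodes EB1, the plus-end protein through which Nav proteins reach growing microtubules. Without the filter on low counts, *Git1* and *Clip2* and *Dctn1* were called higher and *S100a4* lower in WT.

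**Figure D4:**
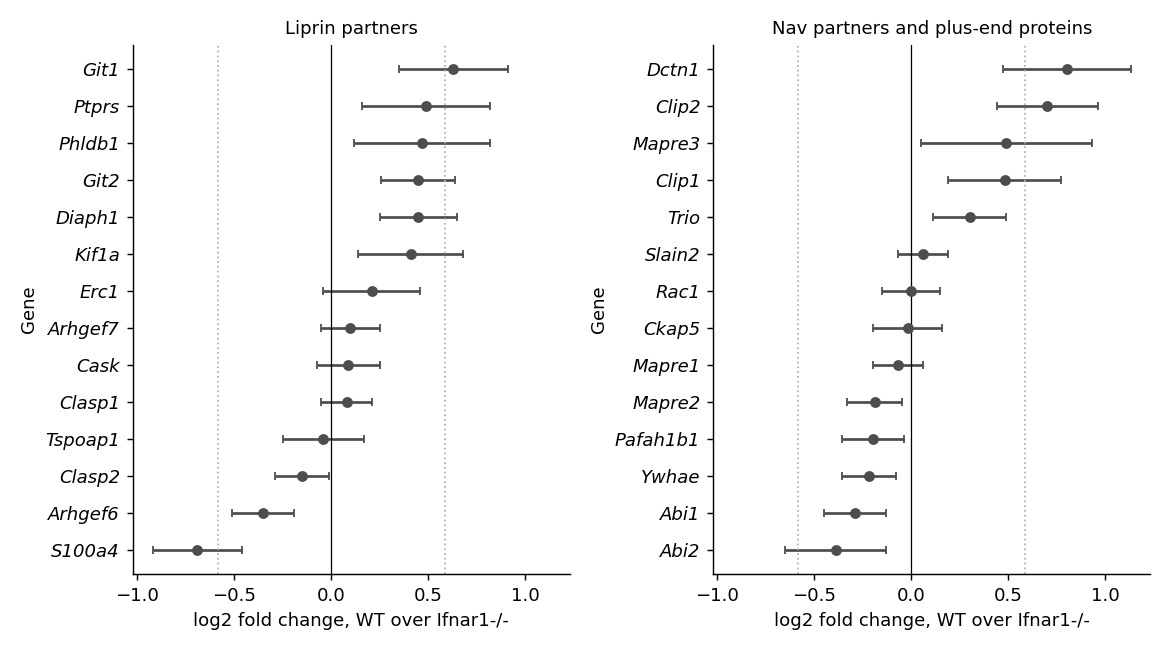
Fitted log2 fold change of WT over *Ifnar1*-/- (points) with its SE (bars) for the 14 tested liprin partners and the 14 tested Nav partners and plus-end genes; dotted lines mark a fold change of 1.5 in either direction. No gene was called, and the values run from -0.69 (*S100a4*) to 0.80 (*Dctn1*).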

How the data were processed

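RNA of sorted monocytes was sequenced in 3 WT and 3 *Ifnar1*-/- libraries with paired-end reads of 75 bp. The authors mapped reads to GRCm38 and ran RSEM; the submitters' notes list RSEM 1.2.31 and STAR 2.6.0c. The strand setting is not given in the sources used here, and labels and methods name different stranded kits. The authors deposited each gene's expected count, not normalized, its TPM, which RSEM scales to a fixed total, and its mean transcript length. Identifiers were matched to GENCODE M21 (54165 of 54232).

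Expected counts were rounded and tested with edgeR 4.0.16 in R 4.3.3 (TMM, filterByExpr with a minimum count of 10, quasi-likelihood test, Benjamini-Hochberg adjustment over 11254 genes). Normalized CPM are CPM at the TMM-adjusted library size. The methods name 3 recipient mice, but no source ties a library to a mouse, so p-values measure the spread between these libraries. The exact permutation test was two-sided, and with 3 libraries against 3 it cannot give a p below 0.1, so it was not used for calls. Same-numbered libraries were not taken as pairs. Alternatives were DESeq2 1.42.0, limma-voom (limma 3.58.1), RLE normalization, other filters, removal of mitochondrial and ribosomal RNA genes, a replicate block in edgeR and in DESeq2, and leaving out each library.

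The members, gene lists, and tests were chosen with earlier results of these data known. The genes named are the members, the genes overlapping or next to *Ppfia4* and *Nav1*, called genes within 1 Mb of them, the 3 most alike in profile, and called partners with the 3 of highest mean TPM in each list. The active zone and cortical genes, *Ly6c2*, *Ptprs*, *Git1*, *Clip2*, *Dctn1*, and *Rpl14-ps1* were named after their values were seen.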

Additional observations from a re-analysis of the deposited data

How the results depend on the processing

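The main test called 240 genes. DESeq2 called 419, and edgeR with no filter on low counts called 872, where 25 rather than 10 genes were called within 20 Mb of *Ptprc* and 2 genes of each partner list rather than 0. It ranged from 119 to 245 when 1 library was left out, with 148 without WT library 3, 119 without *Ifnar1*-/- library 1, and 120 without *Ifnar1*-/- library 3. The number near *Ptprc* then ranged from 6 (without *Ifnar1*-/- library 1) to 11. With at least 10 counts in every library, 1 member rather than 2 was called, since *Ppfia4* was no longer tested. When 1 library was left out, 2 to 3 members were called, and log2 fold changes lay between -4.22 (without WT library 2) and -3.48 for *Ppfia4*, from 2.40 to 3.33 for *Nav1*, from 0.87 to 1.18 for *Nav2*, from 0.13 to 0.37 for *Ppfia1*, from -0.35 to 0.02 for *Ppfibp1*, and from 0.39 to 1.02 for *Ppfibp2*. *Nav2* passed the threshold with DESeq2 (log2 fold change 1.00), without the filter (0.98), and without WT library 2 (1.14), and the cause was not tested. The difference between *Nav1* and *Nav2* was 1.18 in TPM against 1.85 in CPM, and ranged from 1.49 to 2.06 when 1 library was left out. That between *Ppfia4* and its paralogs ranged from -4.07 to -3.25.

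Deviations of same-numbered libraries correlated by 0.0906, 0.0278, and 0.275, and those of the other combinations by -0.196 to 0.0920. WT library 1 correlated about equally with *Ifnar1*-/- libraries 1 and 2 (0.0906 and 0.0920). No source ties the numbers to recipient mice, so they were not taken as pairs, but pairing was not excluded. A replicate block gave 220 called genes, and log2 fold changes were -3.75 for *Ppfia4*, 2.93 for *Nav1*, and 0.98 for *Nav2* (adjusted p = 0.0988 from edgeR). With this block DESeq2 called 264 genes, and *Nav2* was no longer called (log2 fold change 1.00, adjusted p = 0.163). Depth limits *Ppfia2*, *Ppfia3*, and *Nav3*, with at most 10 counts in a library.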
